A study of Mus musculus with 6 samples.

Results

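The AP-1 family of transcription factors was described in LSKs (Lin- Sca-1+ c-Kit+ bone marrow cells, the fraction that contains hematopoietic stem and progenitor cells) from irradiated Tespa1+/+ and Tespa1-/- mice. The 10 genes Fos, Fosb, Fosl2, Jun, Junb, Jund, Atf3, Maff, Mafk and Batf were taken by name from a table of 55487 genes. All 10 were found once, and all passed the filter on low counts, which left 15332 genes to test. There were 3 libraries per genotype. Tespa1+/+ libraries came from mice labelled as wild-type littermates and Tespa1-/- libraries from mice homozygous for the knockout allele Tespa1 tm1Smoc, for which the sources name no tissue-specific driver. Per the study's methods, this line was on a C57BL/6 background after more than 6 generations of backcrossing, the mice were male and 8 to 10 weeks old, and both genotypes received 5.0 Gy of total body irradiation with RNA taken at day 13. No unirradiated library was analysed here, so a response to irradiation itself cannot be read from these values. How many mice went into each library is not stated, so p-values measure only the spread between these libraries.

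AP-1 proteins are dimers of basic leucine zipper (bZIP) factors. Proteins of the Fos family cannot pair with each other and bind DNA with a Jun partner, whereas Jun proteins can also pair among themselves. Atf3 and Batf join Jun proteins to form complexes with other preferences, and the small Maf proteins Maff and Mafk, which lack an activation domain, pair with one another or with the CNC factors such as Bach2, Nfe2 and Nfe2l2. Fos, Fosb, Jun, Junb and Atf3 are classical immediate early genes, whose transcripts rise within minutes of growth factor, cytokine or stress signals and decay quickly. In blood stem and progenitor cells, AP-1 factors are known for their part in activation, in myeloid differentiation and, for JunB, in limiting proliferation.

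Total counts ranged from 12856630 to 30576981 per library. The targeted gene, Tespa1, averaged 34.4 ± 1.62 CPM in Tespa1+/+ against 14.6 ± 0.634 CPM in Tespa1-/- libraries (SD, n = 3 each), where CPM is the count scaled to library size with TMM factors. Its log2 fold change, Tespa1-/- over Tespa1+/+ as throughout, was -1.23 (edgeR adjusted p 7.0e-06), and reads assigned to it were still present in each Tespa1-/- library. Of the markers used to sort the cells, Kit was at 333 ± 9.79 and 170 ± 6.13 CPM (SD, n = 3 each) in Tespa1+/+ and Tespa1-/- libraries, and Ly6a, which encodes Sca-1, was at 50.5 ± 11.6 and 40.4 ± 3.36 CPM (SD, n = 3 each). All 8 stem cell markers examined, among them Mecom and Meis1, were lower in Tespa1-/- libraries, with a median log2 fold change of -1.37. Summed neutrophil markers were at 5.99 to 7.49 CPM in Tespa1+/+ and 350.5 to 363.1 CPM in Tespa1-/- libraries, and 7 of 7 tested neutrophil markers were higher. Ly6g, the defining surface marker, had no count in Tespa1+/+ libraries and averaged 0.428 ± 0.115 CPM in the others (SD, n = 3). Called here means an edgeR adjusted p under 0.05 and a fold over 1.5. By this rule 19.2% of all genes tested were lower and 14.0% were higher, beside which the marker counts are to be read. All 8 stem cell markers and the 7 tested neutrophil markers met it. Of the other cell types, 1 of 6 monocyte markers (Csf1r) was called lower. At the adjusted p alone, 3 monocyte markers were lower and 1 was higher. Their summed levels were 882 to 895 CPM in Tespa1+/+ and 778 to 802 CPM in Tespa1-/- libraries. Of 6 B cell markers 3 were called lower (41.5 to 46.5 and 37.1 to 38.5 CPM), and at the adjusted p alone 1, Cd79b, was higher. Ms4a1 was not tested, with 2, 0 and 3 counts in the Tespa1+/+ libraries and no count in the others. Of 5 T cell markers 1 was tested and called lower (13.5 to 14.7 and 7.10 to 8.10 CPM, nearly all from Lck, with Cd3e, Cd3d, Cd3g and Trbc2 near 0). Of 6 erythroid markers 3 were called lower and 1 higher (41.8 to 43.7 and 48.4 to 51.9 CPM), and of 5 megakaryocyte markers 2 were called lower (106 to 113 and 66.6 to 71.2 CPM). Of 5 mast cell and basophil markers 3 were called lower (110 to 148 and 72.7 to 92.8 CPM), and of 4 plasma cell markers 1 was called lower and 1 higher (136.5 to 160 and 224 to 231 CPM). The part of these cell types in the AP-1 values was not tested. In bulk RNA, fewer cells of a type that holds a transcript and less of that transcript per cell cannot be told apart.

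Of the 10 AP-1 genes, 9 had lower and 1 had higher transcript levels in Tespa1-/- LSKs at an edgeR adjusted p under 0.05. Among the whole set of tested genes, 31.8% were lower and 31.5% were higher by this rule. With a fold over 1.5 added to the rule, 6 AP-1 genes were called lower (Fosb, Fosl2, Fos, Atf3, Maff and Jun) and 1 was called higher (Batf), beside 19.2% of all genes tested called lower and 14.0% called higher. Junb, Jund and Mafk passed the adjusted p but had a smaller fold. The study's own cutoff, an unadjusted p under 0.05 with the same fold, called the same numbers, 6 lower and 1 higher, beside 19.9% and 14.4% of all genes tested. For none of the 10 genes did the libraries of one genotype reach into the range of the other, and over all genes tested they were separated in the lower direction for 34.6% and in the higher direction for 34.5%. The median log2 fold change was -0.66 over the 10 genes and -0.00 over all genes tested. Together the 10 genes held 0.784% to 0.823% of all counts in Tespa1+/+ and 0.402% to 0.425% in Tespa1-/- libraries.

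**Figure D1:**
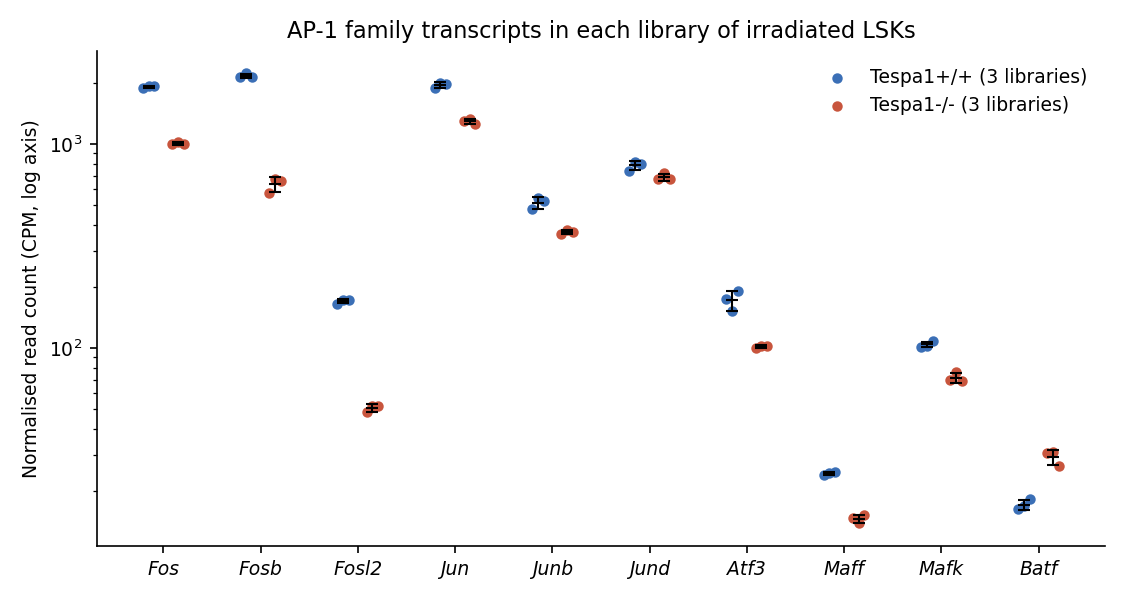
Normalised read counts (CPM, log axis) of the 10 AP-1 family genes in each library. Points are libraries, bars are the mean and SD of 3 libraries. Tespa1-/- points lie below all Tespa1+/+ points for 9 genes and above them for Batf.

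The Fos family supplies the subunits that stabilise AP-1 on DNA. Fos (ENSMUSG00000021250, GRCm38 chromosome 12, 85473890 to 85477273, plus strand, protein coding) was at 1875, 1916 and 1918 CPM in the Tespa1+/+ libraries and at 996, 1027 and 1003 CPM in the Tespa1-/- libraries. The 3 libraries of each genotype were close together, and the genotypes were well apart. The log2 fold change of Fos was -0.92 (SE 0.02, edgeR adjusted p 6.1e-07), that is, 1.89-fold less in Tespa1-/- LSKs.

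Fosb (ENSMUSG00000003545, chromosome 7, 19302696 to 19310051, minus strand), whose protein and its shorter splice form are known to accumulate under repeated stimulation, held the most counts of the family in Tespa1+/+ LSKs. It was at 2120, 2224 and 2127 CPM in Tespa1+/+ libraries and at 575, 677 and 661 CPM in Tespa1-/- libraries. Its log2 fold change, -1.76 (SE 0.06, edgeR adjusted p 1.5e-06), was close to that of Fosl2 and larger in size than those of the other 8 genes, and the counts do not separate its splice forms. Fosl2 (ENSMUSG00000029135, chromosome 5, 32135801 to 32157842, plus strand), which encodes Fra-2, started from a much lower level. It was at 165.3, 172.1 and 171.5 CPM in Tespa1+/+ and at 48.3, 52.2 and 52.2 CPM in Tespa1-/- libraries, and the log2 fold change was -1.74 (SE 0.04, edgeR adjusted p 7.3e-07). Fosl1, the other Fos family gene, was not among the 10 and was scarce in both groups, at 2.34 ± 0.626 and 1.42 ± 0.495 CPM (SD, n = 3 each, edgeR adjusted p 0.0613).

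The Jun family provides the obligate partners. Jun (ENSMUSG00000052684, chromosome 4, 95049034 to 95052222, minus strand), the founding member, was at 1878, 1999 and 1976 CPM in Tespa1+/+ and at 1298, 1321 and 1258 CPM in Tespa1-/- libraries. Its log2 fold change was -0.59 (SE 0.03, edgeR adjusted p 5.8e-06) and corresponds to a fold of 1.51, just inside the fold threshold. Without Tespa1+/+ replicate 2, Tespa1+/+ replicate 3 or Tespa1-/- replicate 3 it was -0.57, just outside it, with adjusted p values of 5.9e-05, 8.0e-05 and 5.0e-05.

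Junb (ENSMUSG00000052837, chromosome 8, 84976910 to 84978718, minus strand), whose product restrains cell cycle entry, was at 478, 542 and 529 CPM in Tespa1+/+ and at 363, 380 and 369 CPM in Tespa1-/- libraries (log2 fold change -0.48, SE 0.05, edgeR adjusted p 1.2e-04). Jund (ENSMUSG00000071076, chromosome 8, 70698949 to 70700616, plus strand), the Jun gene that most cells express without stimulation, changed least. It was at 742, 818 and 797 CPM in Tespa1+/+ and at 674, 719 and 671 CPM in Tespa1-/- libraries, and its log2 fold change was -0.19 (SE 0.04, edgeR adjusted p 0.00742). The lowest Tespa1+/+ library and the highest Tespa1-/- library lay close together for this gene, and without Tespa1+/+ replicate 3 its edgeR adjusted p was 0.0363.

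The counts of 4 of these genes could include reads of a neighbour if the strand was not used in counting, which the sources do not state. Exons of Jun share 232 bases with the antisense gene Junos, which had 23 to 113 counts per library. Exons of Jund share 877 bases with the antisense gene Gm11175, which had 273 to 797 counts. Junb shares 173 bases with Prdx2, a peroxiredoxin gene with 2187 to 4850 counts on the opposite strand, and Mafk shares 169 bases with Tmem184a, which had 0 to 2 counts. These overlaps were taken from the GENCODE M21 annotation. There the coordinates of Junb differ from those in the deposited table, so its overlap may not apply to the deposited counts.

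Among the remaining bZIP members, Atf3 (ENSMUSG00000026628, chromosome 1, 191170296 to 191218039, minus strand), a stress-induced factor that often acts as a repressor, was at 174.0, 151.7 and 190.1 CPM in Tespa1+/+ and at 99.98, 102.4 and 102.7 CPM in Tespa1-/- libraries. The Tespa1+/+ libraries varied more for Atf3 than the Tespa1-/- libraries did, with SDs of 19.3 and 1.49 CPM. Its log2 fold change was -0.76 (SE 0.08, edgeR adjusted p 1.3e-04). The small Maf genes are partners of the CNC factors and not of Fos in most settings. Maff (ENSMUSG00000042622, chromosome 15, 79346621 to 79359076, plus strand) was at 23.7, 24.3 and 24.6 CPM in Tespa1+/+ and at 14.7, 13.9 and 15.2 CPM in Tespa1-/- libraries (log2 fold change -0.73, SE 0.07, edgeR adjusted p 6.8e-05). Mafk (ENSMUSG00000018143, chromosome 5, 139791513 to 139802653, plus strand) was at 101.6, 102.9 and 108.1 CPM against 69.4, 76.2 and 69.1 CPM (log2 fold change -0.54, SE 0.05, edgeR adjusted p 8.8e-05).

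Batf (ENSMUSG00000034266, chromosome 12, 85686669 to 85709087, plus strand) moved the other way. This factor pairs with Jun proteins, recruits Irf4 or Irf8 in lymphoid cells and is known to promote differentiation of stem cells after DNA damage. Its transcript was at 16.3, 16.7 and 18.2 CPM in Tespa1+/+ and at 30.4, 30.8 and 26.3 CPM in Tespa1-/- libraries. The 3 Tespa1-/- libraries all lay above the 3 Tespa1+/+ libraries, and the log2 fold change was 0.78 (SE 0.09, edgeR adjusted p 1.8e-04), a 1.71-fold rise. Of its relatives, Batf2 and Batf3 were near the limit of detection, at 1.13 ± 0.119 and 0.811 ± 0.131 CPM in Tespa1+/+ and 1.82 ± 0.510 and 0.710 ± 0.373 CPM in Tespa1-/- LSKs (SD, n = 3 each, edgeR adjusted p 0.0557 and 0.588).

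**Figure D2:**
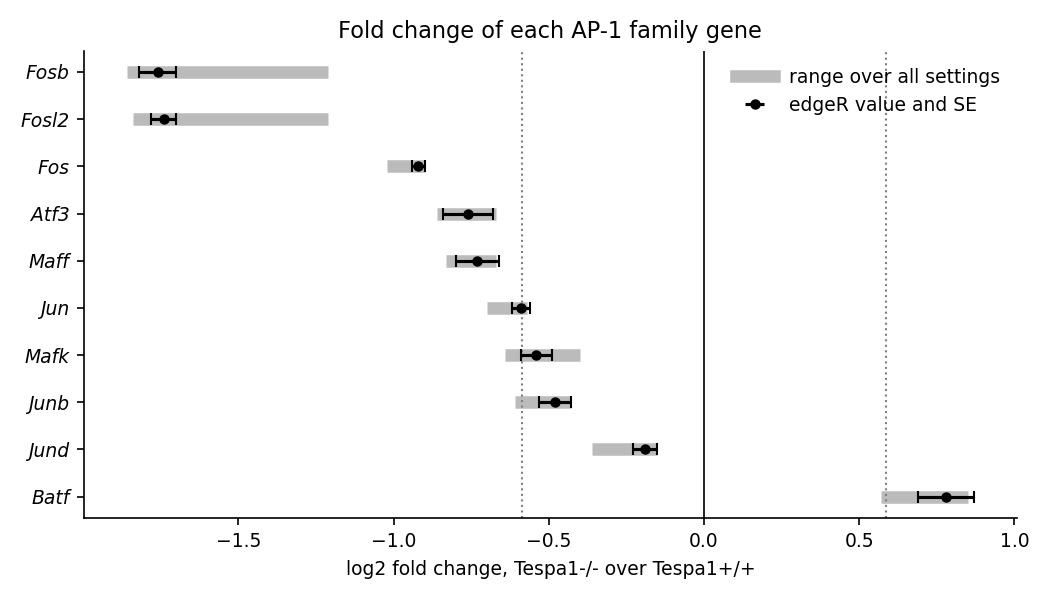
Log2 fold change (Tespa1-/- over Tespa1+/+) of each gene with its SE from edgeR, and the range over all settings tried in grey. Dotted lines mark a fold of 1.5. Fosb and Fosl2 lie farthest to the left, Jun, Mafk and Junb straddle the dotted line, Jund stays inside it and Batf lies on the right, with a range that just crosses the line there.

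Fold changes in these libraries were related to gene length, so each gene was set beside genes of like length. Over all genes tested, the median log2 fold change went from 0.54 in the shortest decile (median union exon length 425 bases) to -0.56 in the longest (11500 bases). Fosb (6243 bases) and Fosl2 (9680 bases) are long, and the median log2 fold changes of their length deciles were -0.23 and -0.56. Fos (2352 bases), Junb (2301 bases), Maff (2594 bases), Atf3 (2154 bases) and Jund (1668 bases) are shorter and lay in deciles with medians of 0.19, 0.19, 0.19, 0.29 and 0.29. For Junb, whose coordinates differ between GENCODE M21 and the deposited table, the deposited FPKM implies 1809 bases, so its decile is uncertain. Jun (3189 bases) and Mafk (3901 bases) lay in deciles with medians of 0.07 and -0.01. All 9 genes that were lower thus lay below the median of their own decile, while Batf (1406 bases) lay above a decile median of 0.41.

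The length trend of each library was then reduced by an offset on union exon length. Among 10100 genes with a mean of at least 8 CPM, the Spearman correlation of log2 fold change with length went from -0.62 to -0.09. All 10 AP-1 genes kept their direction and an edgeR adjusted p under 0.05. That correction moved the median over all genes to 0.11. The log2 fold change became -1.43 for Fosb, -1.21 for Fosl2 and -0.99 for Fos, so that the gap between the first pair and Fos narrowed. Jund went to -0.36 and Batf to 0.57, the latter just under the fold threshold. When the correction instead used the length that the FPKM values imply, Fosb was at -1.21 and Fosl2 at -1.35, so that their order turned. Fos was then at -0.93, Jund at -0.34 and Batf at 0.60. This correction left a Spearman correlation with length of -0.20.

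**Figure D3:**
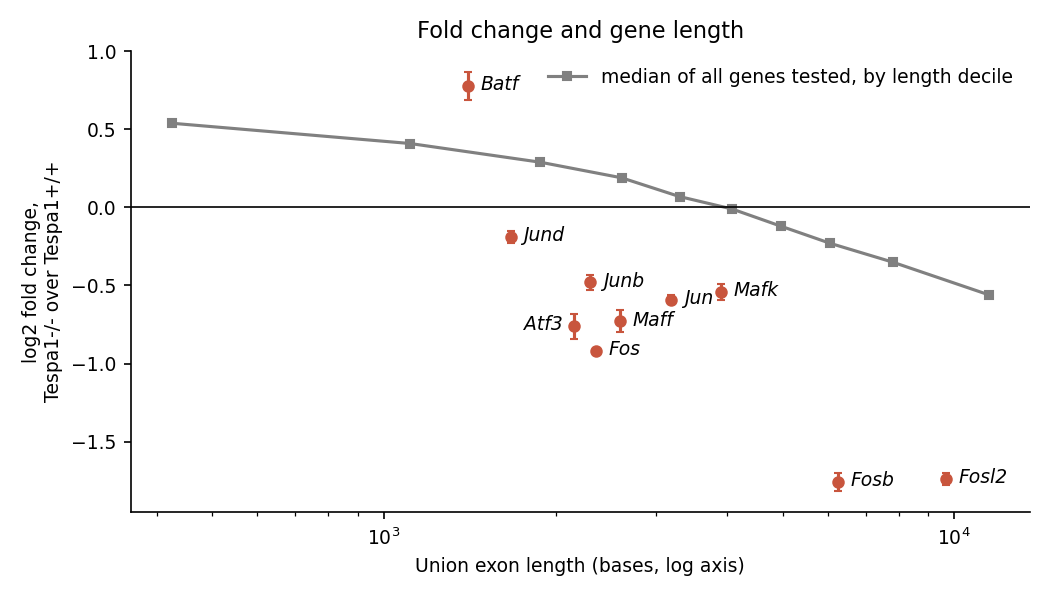
Log2 fold change with SE of the 10 genes against union exon length (bases, log axis). Grey squares are the median of all genes tested in each length decile. The 9 lower genes lie below the grey line and Batf lies above it.

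To compare levels between genes, values per length were used. By the deposited FPKM, which divides counts by gene length and library total, the order in Tespa1+/+ LSKs was Jun (632 on average), Fos (519), Jund (487), Junb (295), Fosb (135), Atf3 (69.4), Mafk (16.8), Fosl2 (15.1), Batf (11.9) and Maff (5.55), and no neighbours in this order overlapped between libraries. In Tespa1-/- LSKs it was Jund (398 FPKM) and Jun (391 FPKM), which overlapped, then Fos (256.5) and Junb (197.5), then Atf3 (38.3) and Fosb (37.2), which also overlapped, and then Batf (18.9), Mafk (10.8), Fosl2 (4.23) and Maff (3.12). By FPKM, Batf thus passed Mafk and Fosl2 in order, and Jund drew level with Jun.

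The length in the deposited FPKM is not the same as the union of annotated exons. For Fosb the FPKM implies 16525 bases against 6243 bases of union exons, and for Fos 3792 against 2352 bases. By CPM per kilobase of union exons, Fos led in Tespa1+/+ LSKs (809), followed by Jun (612), Jund (471) and Fosb (345.5), and in Tespa1-/- LSKs Fos (429), Jund (412) and Jun (405) overlapped with their neighbours. The place of Fosb relative to Junb in Tespa1+/+ LSKs therefore depends on the length used. In Tespa1-/- LSKs Junb was above Fosb by FPKM and also by CPM per kilobase of union exons (161 and 102). Batf (20.7) and Mafk (18.35) overlapped in Tespa1-/- LSKs by CPM per kilobase of union exons, unlike by FPKM. Dividing by a fixed length does not alter the fold of a gene between genotypes, whereas the length corrections above did. Among the 15332 genes tested, Fos ranked 96 to 104 by FPKM in Tespa1+/+ and 263 to 276 in Tespa1-/- libraries, Jun ranked 76 to 88 and 184 to 192, and Fosb ranked 370 to 395 and 1430 to 1663.

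Ratios of genes within a library do not depend on how libraries are scaled and were compared next. They are not corrected for the length trend, which bears on pairs of unequal length. With 3 libraries against 3, an exact permutation test of a single ratio cannot go below a two-sided p of 0.10, so ratios are given as descriptions. The summed FPKM of Fos, Fosb and Fosl2 over that of Jun, Junb and Jund reached 0.491, 0.462 and 0.467 in the Tespa1+/+ libraries, against 0.298, 0.2997 and 0.309 in the Tespa1-/- libraries. Of the summed FPKM of the 10 genes, the Fos family took 30.2% to 31.3% in Tespa1+/+ against 21.7% to 22.4% in Tespa1-/- libraries. The share of the Jun family went from between 63.8% and 65.5% to between 72.4% and 72.95%.

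Within the Jun family, Jund gained the most. Its share of the summed FPKM was 21.85% to 22.7% in Tespa1+/+ and 29.1% to 29.8% in Tespa1-/- libraries, and that of Junb was between 12.99% and 13.8% and between 14.5% and 14.8%. The share of Jun was between 28.85% and 29.0% and between 28.55% and 29.4%, which overlap, but by counts per union exon length it was between 23.3% and 23.6% and between 24.9% and 25.75%, which do not. Jun exceeded Jund in the Tespa1+/+ libraries, at ratios of 1.325, 1.28 and 1.30, and was level with it in the Tespa1-/- libraries, at 1.01, 0.9605 and 0.980. The log2 fold changes of Jun and Jund were -0.59 and -0.19 without a length correction. They were -0.57 and -0.36 with that on union exon length and -0.62 and -0.34 with that on the implied length, so this shift narrowed. Junb, at -0.56 and -0.61 with these corrections, was then level with Jun. The ratio of Fosb to Jund went furthest among the Fos and Jun pairs examined, from 0.288, 0.274 and 0.269 to 0.0861, 0.0950 and 0.0994. The log2 fold changes of these genes were -1.76 and -0.19 without a length correction and -1.21 and -0.34 with that on the implied length, which narrows this shift by more than 1.5-fold. For Batf, the ratio to Fosl2 was 0.759 to 0.829 in Tespa1+/+ and 3.93 to 4.91 in Tespa1-/- libraries. This shift, too, was narrower by more than 1.5-fold with the union exon length correction, under which Batf was at 0.57 and Fosl2 at -1.21. Maff and Mafk together took 0.991% to 1.04% of the summed FPKM in Tespa1+/+ and 1.02% to 1.03% in Tespa1-/- libraries, which overlap. By counts per union exon length they took between 1.34% and 1.41% and between 1.49% and 1.503%, which do not. With counts per union exon length, the share of the Fos family was 44.5% to 45.7% in Tespa1+/+ and 32.9% to 33.9% in Tespa1-/- libraries, so that the levels differ from those with FPKM but the direction does not.

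**Figure D4:**
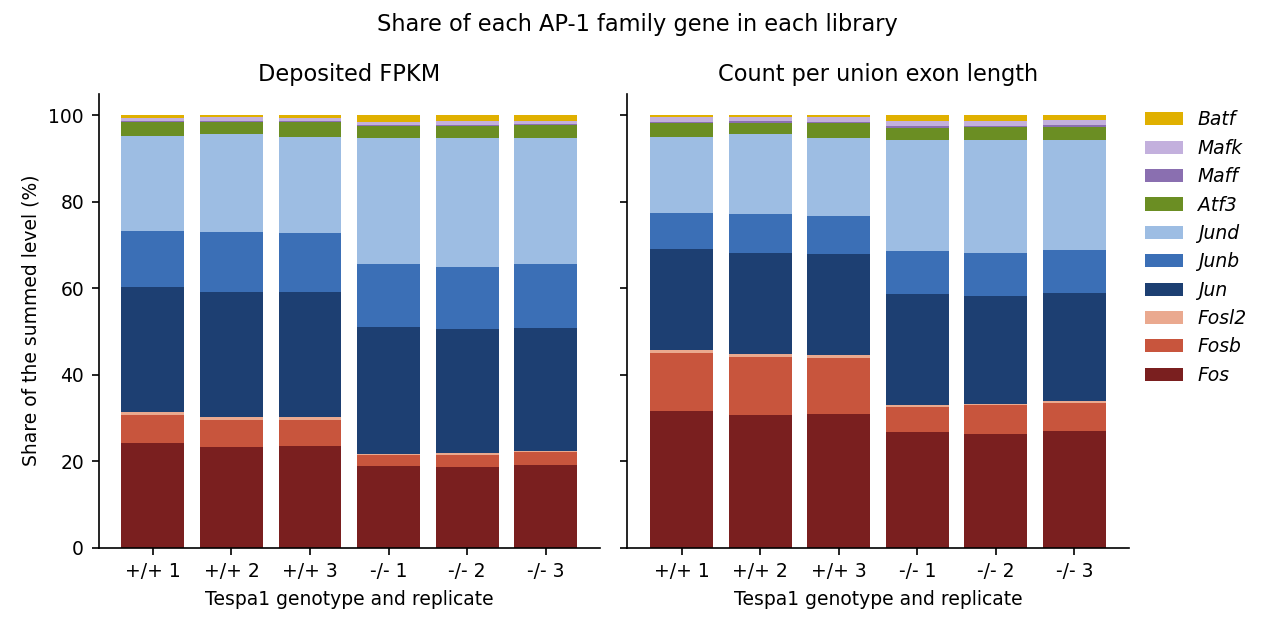
Share of each gene in the summed level of the 10 AP-1 family genes (percent), per library, with the deposited FPKM on the left and counts per union exon length on the right. The Fos family (red) takes a smaller share and Jund (light blue) a larger share in the 3 Tespa1-/- libraries on both scales.

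Promoter sequences are shown for 4 genes: Fos and Fosb, the Fos genes with the most counts, Maff, 1 of the other genes that fell, and Batf, which rose. The RefSeq table held windows for all 10 genes, 12 in all (build GRCm38.p6), and the 250 bases before each listed start were searched on both strands. TGACG, the core of the cyclic AMP response element that CREB and ATF factors bind, was in 8 of these 12 windows and in 7 of the 10 genes, beside 17.8% of all 32851 windows. The full palindrome TGACGTCA, which contains TGACG on each strand, was in 1 window (of Maff), beside 1.55% of all windows. TGACTCA, the element that AP-1 itself binds, and the CArG box of SRF were in none of the 12, beside 4.46% and 1.47% of all windows. Sequence beyond these 250 bases was not searched, so a promoter with no match may hold any of these elements farther from its start. The matches are of letters and say nothing of binding. Sequences run 5′ to 3′ on the strand of the gene and end at the base before the start. Capitals mark TGACG or, in Maff, TGACGTCA.
Fos, chr12:85473640-85473889, plus strand: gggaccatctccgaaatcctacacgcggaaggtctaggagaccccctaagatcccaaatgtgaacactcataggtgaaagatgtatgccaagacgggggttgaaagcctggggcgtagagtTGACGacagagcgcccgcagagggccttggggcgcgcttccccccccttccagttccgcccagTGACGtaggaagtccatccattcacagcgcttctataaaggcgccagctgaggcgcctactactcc
Fosb, chr7:19310046-19310295, minus strand: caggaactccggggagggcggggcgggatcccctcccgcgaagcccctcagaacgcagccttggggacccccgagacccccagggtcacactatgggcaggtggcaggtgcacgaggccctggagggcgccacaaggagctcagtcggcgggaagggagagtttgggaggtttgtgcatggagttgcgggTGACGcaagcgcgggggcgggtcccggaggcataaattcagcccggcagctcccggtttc
Maff, chr15:79347270-79347519, plus strand, the window whose start lies 899 bases inside the gene: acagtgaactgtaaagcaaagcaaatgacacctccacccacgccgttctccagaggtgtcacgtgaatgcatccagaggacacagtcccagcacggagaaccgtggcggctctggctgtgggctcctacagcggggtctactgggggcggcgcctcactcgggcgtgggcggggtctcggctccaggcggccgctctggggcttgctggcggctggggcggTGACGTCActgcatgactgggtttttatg
Batf, chr12:85686470-85686719, plus strand: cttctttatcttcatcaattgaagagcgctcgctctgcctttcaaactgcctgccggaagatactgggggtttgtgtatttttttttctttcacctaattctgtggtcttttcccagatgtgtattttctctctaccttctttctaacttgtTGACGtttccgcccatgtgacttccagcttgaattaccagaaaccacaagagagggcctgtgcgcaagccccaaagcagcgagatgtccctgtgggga
In Fos, the matches begin 129 and 66 bases before the start, and a TATAAA match begins 33 bases before it. In Fosb the match begins 60 bases, in Maff 29 bases and in Batf 98 bases before the listed start. The window of Jund lies 1210 bases upstream of the gene as the deposited table places it and held none of these matches. Nor did the windows of Fosl2 and Jun, or the Maff window that ends at the start of the gene in the deposited table.

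The dimer partners and relatives of these factors were examined next. Of 19 other AP-1 and partner bZIP genes, 18 were tested, of which 5 were lower, 5 were higher and 8 did not pass an edgeR adjusted p of 0.05. These shares are near those over all genes tested (31.8% lower and 31.5% higher), against which the counts of the following lists are also to be read. Their median log2 fold change was -0.07. With a fold over 1.5, 3 of the 18 were called lower, among them Bach2 and Atf7, beside 19.2% of all genes tested. Bach2, a repressor that pairs with small Maf proteins, was at 11.8 ± 0.590 and 0.635 ± 0.203 CPM (SD, n = 3 each; log2 fold change -4.24, edgeR adjusted p 3.0e-06). Atf7, a relative of Atf2, fell from 116 ± 2.20 to 66.4 ± 2.02 CPM (log2 fold change -0.81, edgeR adjusted p 4.2e-06). Both lie in the longest decile, with a median of -0.56.

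A single gene of this list was called higher, beside 14.0% of all genes tested. Jdp2, a repressor that pairs with Jun, averaged 25.1 ± 2.21 CPM in Tespa1+/+ and rose to 47.4 ± 3.54 CPM (SD, n = 3 each), with log2 fold change 0.92 and edgeR adjusted p 8.4e-05, the same direction as Batf. Smaller rises passed the adjusted p for Creb1 (0.40), Atf1 (0.27), Atf4 (0.57) and Nfe2l2 (0.21), and smaller falls for Bach1 (-0.50) and Nfe2l1 (-0.43), all as log2 fold changes. For Mafg, the third small Maf gene, the values were 89.2 ± 2.07 and 86.2 ± 2.01 CPM (SD, n = 3 each, edgeR adjusted p 0.298). For Nfe2 they were 78.3 ± 28.5 and 72.6 ± 36.4 CPM, with a wide spread between libraries in both groups (edgeR adjusted p 0.868).

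Factors that switch on Fos and other immediate early genes followed. SRF binds the serum response element with the ternary complex factors Elk1, Elk3 and Elk4 or with the myocardin-related factors Mrtfa and Mrtfb, and MEF2 factors act on the Jun promoter. Of these 9 genes, 7 were lower at an edgeR adjusted p under 0.05, none was higher (31.8% and 31.5% over all genes tested), and the median log2 fold change was -0.51. Most of these genes are long. Mef2c and Mef2a lie in a length decile with a median of -0.56, Mrtfb in one at -0.35, and Mef2d, Mrtfa and Elk4 in one at -0.23. Mrtfb had the largest fall, with means of 30.7 ± 1.964 and 8.24 ± 0.919 CPM (SD, n = 3 each), log2 fold change -1.90 and edgeR adjusted p 5.9e-06, followed by Mef2c (-1.41, edgeR adjusted p 6.0e-05) and Mef2d (-0.92, edgeR adjusted p 1.5e-06). Srf itself moved little, from 121 ± 5.80 to 107 ± 0.830 CPM (log2 fold change -0.18, edgeR adjusted p 0.00824). Elk4 and Mef2a did not pass (edgeR adjusted p 0.129 and 0.683), and both varied widely among Tespa1+/+ libraries.

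The kinases of the JNK, p38 and ERK routes, which phosphorylate Jun, ATF and Elk proteins, were a further list. Of 19 genes, 9 were lower, 4 were higher and 6 did not pass (31.8% lower and 31.5% higher over all genes tested), with a median log2 fold change of -0.18. The genes called lower with a fold over 1.5 were Mapk14, which encodes p38 alpha (-0.83, edgeR adjusted p 0.0414, with SDs of 63.7 and 30.2 CPM around means of 174.3 and 97.9 CPM), Map3k1 (-0.73, edgeR adjusted p 1.2e-05) and Braf (-0.68, edgeR adjusted p 1.3e-04), on the log2 scale. The medians of their length deciles were -0.01, -0.35 and -0.56, so that Braf lay close to genes of its length. Map2k2 and Mapk3, which encode MEK2 and ERK1, were among those that rose (log2 fold changes 0.50 and 0.43).

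Of 11 genes for the turnover of Jun and its relatives, such as ubiquitin ligases, 6 were lower, 2 were higher and 3 did not pass (31.8% lower and 31.5% higher over all genes tested), with a median log2 fold change of -0.19. Smurf1, a ligase for JunB, and Usp28, a deubiquitinase that opposes Fbxw7, were called lower (log2 fold changes -1.16 and -0.64, edgeR adjusted p 8.3e-04 and 5.7e-04), and both lie in a decile with a median of -0.23. Cops5, a COP9 signalosome subunit first known as the Jun coactivator Jab1, was called higher (0.61, edgeR adjusted p 1.5e-04). Cop1, a ligase for Jun, was at 41.9 ± 1.91 and 40.9 ± 1.44 CPM (SD, n = 3 each, edgeR adjusted p 0.671).

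Genes known as AP-1 targets were then compared. Of 16, 12 were tested, 8 were lower, 2 were higher and 2 did not pass (31.8% lower and 31.5% higher over all genes tested), and the median log2 fold change was -0.27. Lmna, the gene of lamin A and C, fell from 45.8 ± 1.94 to 17.1 ± 0.791 CPM, Hbegf from 4.30 ± 0.511 to 1.63 ± 0.520 CPM and Ccnd1, the gene of cyclin D1, from 72.6 ± 2.88 to 36.5 ± 3.40 CPM (SD, n = 3 each; in log2 terms -1.42, -1.40 and -0.99, edgeR adjusted p 3.0e-06, 0.00148 and 2.7e-05). The genes that were higher were Spp1 (log2 fold change 0.91, edgeR adjusted p 2.0e-04) and Mmp9, which mature neutrophils store in their granules and which was at 0.135 ± 0.0241 CPM in Tespa1+/+ and 5.92 ± 0.433 CPM in Tespa1-/- libraries (SD, n = 3 each, edgeR adjusted p 1.8e-06). Mmp9 moved with the neutrophil markers given above, and their part in its rise was not tested. The tissue-type targets Mmp3, Mmp13, Timp1 and Il6 were too low to test.

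**Figure D5:**
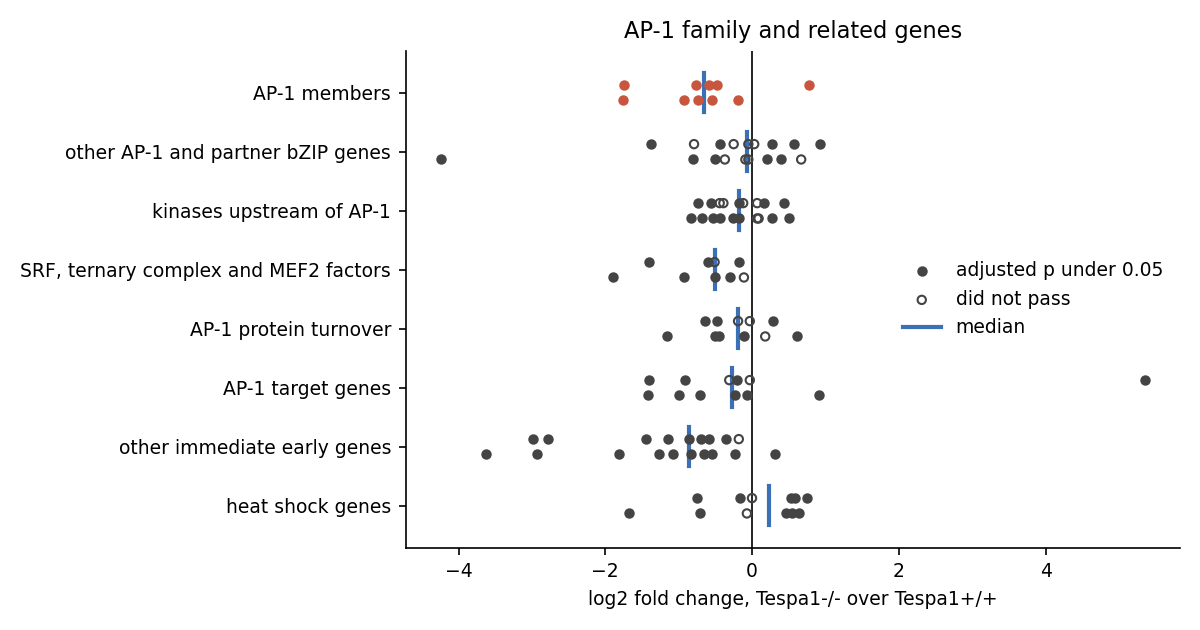
Log2 fold change (Tespa1-/- over Tespa1+/+) of each tested gene in the AP-1 family and in 7 related lists. Filled points passed an edgeR adjusted p of 0.05, open points did not, and blue bars are medians. The 10 family members and the other immediate early genes lie mostly left of 0, and heat shock genes lie on both sides.

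Immediate early genes outside the AP-1 family were mostly lower as well. Of 20, 19 were tested, of which 17 were lower, 1 (Gadd45b) was higher and 1 (Csrnp1) did not pass, with a median log2 fold change of -0.86. With a fold over 1.5, 14 were called lower. Over all genes tested, 31.8% were lower by the first rule and 19.2% by the second. The largest falls among genes with a mean count of at least 50 were those of Egr3, Nr4a3 and Egr1, with log2 fold changes of -2.99, -2.93 and -2.78 (edgeR adjusted p 8.3e-06, 3.5e-06 and 3.7e-08), which exceed those of the AP-1 genes in size. Dusp1, which encodes a phosphatase of the JNK, p38 and ERK kinases and is commonly induced with Fos, fell by only 0.23 on the log2 scale (edgeR adjusted p 1.1e-04).

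Heat shock genes, which cells switch on under protein stress, were examined as a further group of inducible genes. Of 12 heat shock genes, 4 were lower, 6 were higher and 2 did not pass, with a median log2 fold change of 0.23. The share that was lower is near the 31.8% over all genes tested, of which 31.5% were higher. Hspa1a and Hspa1b, the inducible Hsp70 genes, were at 339 ± 5.17 and 723 ± 16.3 CPM in Tespa1+/+ and at 201 ± 3.42 and 443 ± 12.5 CPM in Tespa1-/- libraries (SD, n = 3 each; log2 fold changes -0.75 and -0.71, edgeR adjusted p 1.8e-06 and 2.8e-06). Hspe1, a mitochondrial chaperone gene, rose by a log2 fold change of 0.75 (edgeR adjusted p 2.5e-06). Hspa1a and Hspa1b are near-identical copies, so the split of reads between them is uncertain. Whether the handling of the cells differed between the genotypes was not tested.

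Finally, the genes whose pattern over the 6 libraries was closest to that of Fos were sought by the Euclidean distance of centred log2 CPM, among 9652 genes with a mean of at least 10 CPM and a count in every library. The 5 closest were Wdr90, Mef2d, Pacs1, Ripor1 and Cit, at distances of 0.030, 0.038, 0.039, 0.050 and 0.055, with log2 fold changes between -0.92 and -0.91. The closest AP-1 genes were Maff (distance 0.257, rank 392), Atf3 (0.311, rank 562) and Jun (0.399, rank 822). With 2 groups that differ and little spread within them, this distance mostly measures how alike the fold changes are.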

How the data were processed

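RNA of LSKs was sequenced as poly(A)-selected, stranded, paired-end libraries. Per the labels, the authors' processing notes name CASAVA 1.8, HISAT2, StringTie, edgeR and build GRCm38, while the counting strand and annotation release are not given in the sources used here. The authors deposited raw counts per gene and FPKM in 1 table.

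Counts were tested with edgeR 4.0.16 (R 4.3.3; filterByExpr, TMM, quasi-likelihood F test, Benjamini-Hochberg over 15332 genes; common biological coefficient of variation 0.11). Calls needed an adjusted p below 0.05 together with more than a 1.5-fold difference. Alternatives used DESeq2 1.42.0 and limma 3.58.1, the latter on log2(FPKM + 1) and log2(FPKM + 0.1). Exon lengths were unions of GENCODE M21 exons, and 55227 of 55487 genes matched by identifier. Junb was the only AP-1 gene whose coordinates differed between GENCODE M21 and the deposited table. Same-numbered libraries were not treated as pairs (correlations of their deviations 0.041, 0.010 and 0.039). In simulated counts (15277 genes, 200 changed, no length trend), edgeR recovered 100% with 12 false calls, here by the adjusted p alone. When a length trend was simulated (15183 genes) it made 4268 such calls, and 7 after the length correction (15172 genes). The simulated trend was set on the same union exon length that the correction used.

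The AP-1 genes and all lists were chosen with earlier results of these data known. All AP-1 genes were named, as could be any partner bZIP or SRF, ternary complex and MEF2 gene. In the other related lists, the 3 called genes with the largest change and a mean count of at least 50 were named, with the 5 genes closest to Fos. Cop1, Csrnp1, Dusp1, Gadd45b, Mapk3, Map2k2, Mmp9 and Spp1 were named after their values were seen. Counts below about 3 per library carry little information, and depth sets the precision of low genes such as Maff (188 to 768 counts) and Batf (270 to 528 counts). The values of 1 gene of the partner bZIP list are not reported here.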

Additional observations from a re-analysis of the deposited data

How the results depend on the processing

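All 10 AP-1 genes kept their direction in each of the alternatives that gave a log2 fold change. They also kept an adjusted p under 0.05 in 16 of 16 alternatives tested against no change, where the highest was 0.0363 (Jund, without Tespa1+/+ replicate 3). Tested against a fold of 1.5 (glmTreat), Fos, Fosb, Fosl2, Atf3, Maff and Batf passed, with the last 3 at adjusted p of 0.0465, 0.0443 and 0.044, and Jun did not (0.534), nor did Junb, Jund and Mafk (each 1). Jun exceeded a fold of 1.5 in 12 of 16 alternatives, Mafk in 3, Junb in 1 and Batf in 15. With the correction on union exon length, 0 AP-1 genes were called higher, because Batf was at 0.57. The same correction called 5 lower, because Jun was at -0.57. Over all genes, glmTreat called 1807 lower and 1020 higher, limma on log2(FPKM + 1) called 1626 lower and 1070 higher, and limma on log2(FPKM + 0.1) called 2278 lower and 1365 higher, beside 2951 and 2148. By design, glmTreat is the stricter test, and limma was run on 12704 genes against 15332. The cause of the limma numbers was not tested. Total-count scaling moved the median over all genes to -0.10 and the share of higher calls from 42.1% to 29.8%, and both length corrections moved the median to 0.11. A block on replicate number gave 2871 lower and 2101 higher genes, 6 and 1 AP-1 genes kept those calls, and the numbers did not pair the libraries. With 3 libraries per group, small changes such as that of Jund rest on few values.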
